A study of Mus musculus with 12 samples.

Results

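The genes that encode AMP-activated protein kinase (AMPK) were examined in RNA-seq of C2C12GFP cells, a mouse myoblast line that carries green fluorescent protein and can be differentiated into multinucleate myotubes. The 7 subunit genes and *Stk11*, which encodes the upstream kinase LKB1, were taken by name from the deposited table of raw read counts, so the set holds 8 of the 55536 genes listed there. Cells were differentiated on uncoated plates (control) or on 1 of 3 coatings, namely fibronectin, Collagen I, and Geltrex™, the last a basement membrane extract made up mainly of laminin, Collagen IV, and entactin. There were 3 samples in each of the 4 groups, the same cell line and the same low-serum differentiation medium were used in all of them, and no other agent or genotype was named. The labels give no day of RNA collection and do not say whether the samples were separate cultures, so p-values measure the spread between these samples, which may be technical.

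AMPK is a heterotrimer that senses cellular energy. A catalytic alpha subunit (*Prkaa1* for alpha1, *Prkaa2* for alpha2) is held by a scaffolding beta subunit that can bind glycogen (*Prkab1*, *Prkab2*) to a gamma subunit that binds adenine nucleotides (*Prkag1*, *Prkag2*, *Prkag3*). LKB1 phosphorylates the activation loop of the alpha subunit, and in skeletal muscle the alpha2, beta2, and gamma3 isoforms are known from mature fibers, with gamma3 most abundant in fast glycolytic muscle. The counts describe mRNA and not subunit protein or kinase activity. In bulk samples, fewer cells of a type and less RNA per cell cannot be told apart.

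Each sample held 22520404 to 27351766 counts, and all 8 genes were among the 14499 that passed the filter on low counts. Levels are given as CPM, reads relative to the TMM-scaled size of their library, and levels of different genes are compared only per kilobase of exon. A gene was called when its adjusted p in edgeR's quasi-likelihood test was at most 0.05, with Benjamini-Hochberg adjustment over all genes tested. The label of the cells as differentiating skeletal muscle was checked with 10 myotube genes, among them *Myog*, *Acta1*, and *Ttn*, whose summed level was 8140 to 9332 CPM in the control and Collagen I samples, 2625 to 2960 CPM on fibronectin, and 3731 to 4158 CPM on Geltrex™. The sum of 8 genes of cycling cells, such as *Mki67* and *Top2a*, ran the other way, from 176 to 258 CPM in the control and Collagen I samples to 677 to 906 CPM on fibronectin and 691 to 750.1 CPM on Geltrex™. The sum of 6 genes of undifferentiated myoblasts, such as *Pax7* and *Myf5*, was 581.9 to 602 CPM in the Geltrex™ samples. It was 408 to 495 CPM in all other samples, with no overlap. Of the 6, 1 was called higher on Geltrex™ than in control, and their median log2 fold change was 0.0017. In mean CPM *Vcam1* differed most, with 237.5 on Geltrex™ and 121.3 in control. *Cdh15* and *Id3* also had higher means on Geltrex™. *Id1*, *Pax7* (0.217 on Geltrex™ and 0.558 in control), and *Myf5* (33.03 and 34.2) had lower means there. The part of these cell states in the results on AMPK genes was not tested. Sums of adipocyte, macrophage, and endothelial genes were at most 3.49 CPM in any sample, with *Adgre1* at 0 counts throughout and *Cdh5* and *Kdr* at 5 and 2 counts over all samples. The 4 fibroblast genes with counts, *Col3a1* foremost, summed to 5189 to 6518 CPM across all groups, and *Thy1* had no count. Single genes in that sum were not level. Mean *Lum* was 90.5 CPM in control, 86.4 on Collagen I, 53.8 on fibronectin, and 19.2 on Geltrex™. Mean *Dcn* was 2010, 2028, 1665, and 1316 CPM in the same order. *Col3a1* had means of 3990 to 4170 CPM, and *Pdgfra* was highest on Geltrex™ (42.9 CPM, beside 38.3 in control). Between samples of a group, the chi-square of the counts per gene, which is near 1 for sampling noise alone, was 44.4 and 64.6 between Collagen I replicate 3 and the other samples of its group, 2.18 to 4.54 among the Geltrex™ samples, and 7.71 to 31.2 for the remaining pairs. Collagen I replicate 3 thus stood apart from its group, and the Geltrex™ samples differed least from each other.

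The promoter windows of the 8 genes were read to show what sequence lies before genes that differed in opposite directions between Collagen I and fibronectin. The 2 catalytic genes are shown whole, as the 250 bases before the RefSeq start site (build GRCm38.p6), with GC boxes (GGGCGG, or CCGCCC where the box lies on the other strand) in capitals. *Prkaa1* lies on chr15:5143861-5181899 on the plus strand and its window is chr15:5143611-5143860, and *Prkaa2* lies on chr4:105029874-105109890 on the minus strand and its window is chr4:105109899-105110148.
Prkaa1: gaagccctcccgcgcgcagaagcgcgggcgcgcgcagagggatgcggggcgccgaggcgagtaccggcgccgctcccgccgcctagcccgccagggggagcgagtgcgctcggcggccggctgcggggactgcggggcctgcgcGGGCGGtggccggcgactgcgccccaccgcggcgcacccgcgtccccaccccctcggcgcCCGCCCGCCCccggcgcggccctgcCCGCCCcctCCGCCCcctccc
Prkaa2: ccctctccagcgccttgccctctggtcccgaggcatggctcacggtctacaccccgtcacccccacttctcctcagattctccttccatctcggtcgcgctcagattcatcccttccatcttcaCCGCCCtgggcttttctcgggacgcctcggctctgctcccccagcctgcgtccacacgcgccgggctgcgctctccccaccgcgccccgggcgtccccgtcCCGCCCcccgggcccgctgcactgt

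The window of *Prkaa1* was 85.2% G and C with 5 GC boxes, 2 of which overlap, and that of *Prkaa2* was 70% G and C with 2, against a median of 52.4% and a 90th percentile of 69.2% over 32851 mouse promoter windows of the same length. A GC box was found on either strand in 32.7% of all these windows and in 6 of the 10 windows of the 8 genes (*Prkag2* has 3 start sites). Neither window holds an E-box, the CANNTG motif read by MyoD, myogenin, and other basic helix-loop-helix factors, which was present in 66.2% of all windows and in 6 of the 10. The gamma3 gene *Prkag3* (chr1:74738922-74749221, minus strand) had a window of 52.4% G and C with no GC box and 1 E-box, 40 bases before the start, and that box has the letters CAGCTG found in 13% of all windows. Its 30 bases at chr1:74748978-74749007, minus strand, are shown with the E-box in capitals.
Prkag3: gcagtgcgggaaCAGCTGcgggttaagcgc

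All 250 bases of the *Prkag3* window fall within an exon of the gene in the GENCODE M21 annotation, which starts this gene farther upstream than RefSeq does. The motif matches describe the letters only.

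*Prkag3*, the gene of the muscle-restricted gamma3 subunit, differed most among the 8. It stood at 25.1, 25.0, and 19.6 CPM in the control samples and at 22.6, 22.0, and 21.6 CPM on Collagen I. On fibronectin it stood at 6.02, 5.44, and 5.32 CPM, and on Geltrex™ at 9.74, 7.79, and 9.29 CPM. The fibronectin samples were the lowest, the Geltrex™ samples came next, and neither overlapped any other group. Relative to control, *Prkag3* fell by 2.05 on the log2 scale on fibronectin (SE 0.123, adjusted p = 1.3e-08) and by 1.38 on Geltrex™ (SE 0.119, adjusted p = 3.37e-07). It was higher with Collagen I than with fibronectin by a log2 fold change of 1.98 (95% interval 1.71 to 2.24, adjusted p = 1.24e-08) and than on Geltrex™ by 1.30 (1.05 to 1.56, adjusted p = 5.7e-07). The level on fibronectin was below that on Geltrex™ as well, with a difference of −0.67 on the log2 scale (SE 0.129, adjusted p = 0.00157). It was called in these 5 comparisons whichever 1 of the 12 samples was left out.

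**Figure D1:**
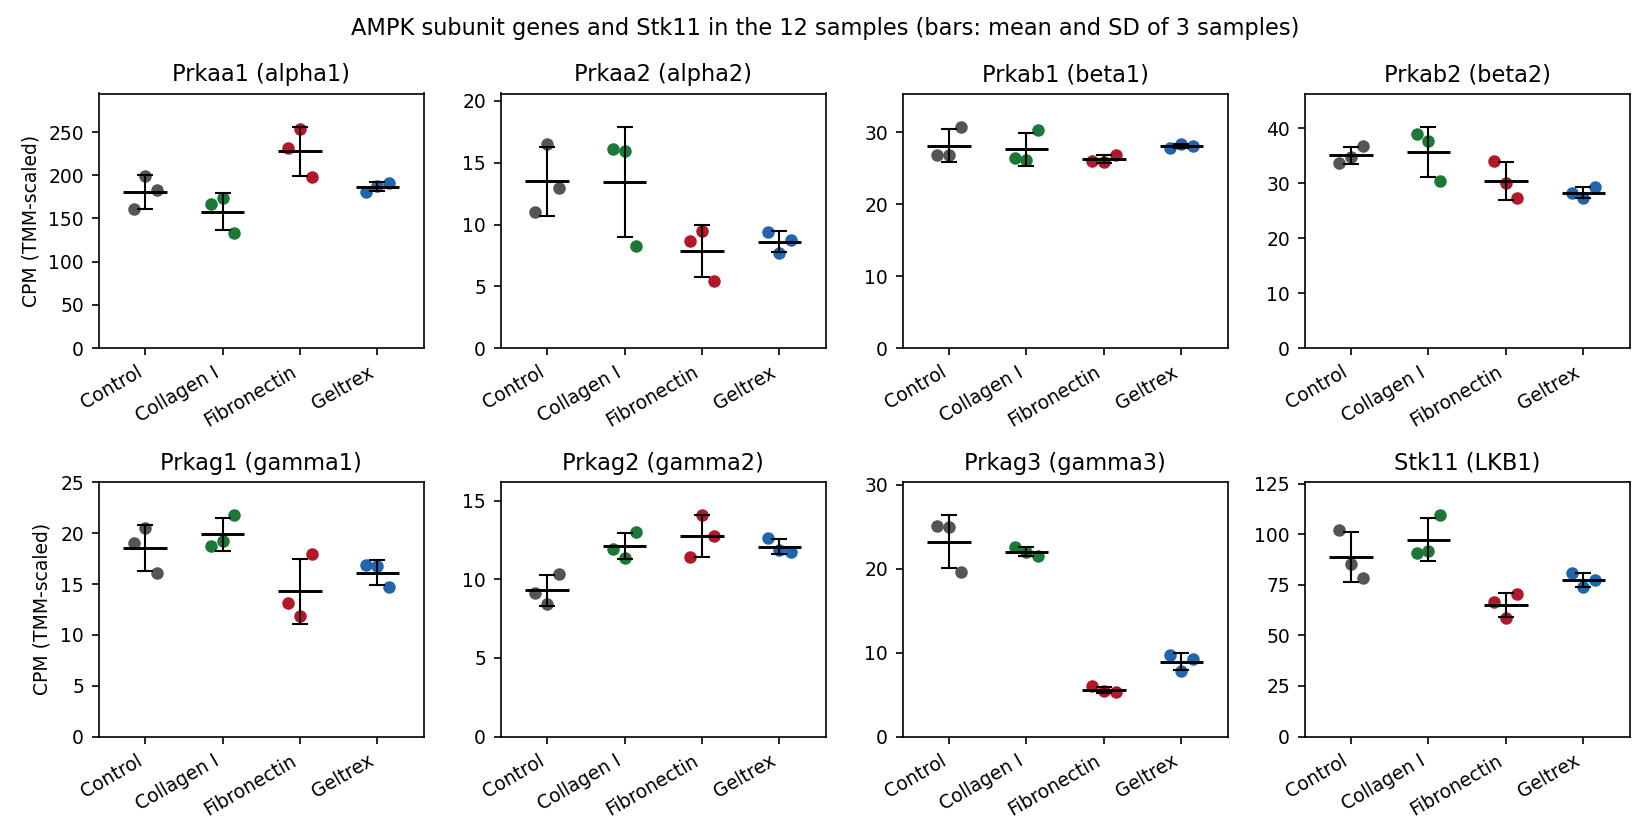
Level of each of the 8 genes in the 12 samples, in TMM-scaled CPM on linear axes that start at 0, with 1 point per sample and the mean and SD of the 3 samples of each group in black. *Prkag3* falls from 19.6 to 25.1 CPM in control samples to 5.32 to 6.02 CPM on fibronectin, and *Prkab1* stays between 25.9 and 30.7 CPM in all 12 samples.

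The gamma1 gene *Prkag1*, which is expressed in most tissues, stood at 19.1, 20.5, and 16.1 CPM in the control samples and at 18.7, 19.2, and 21.8 CPM on Collagen I. It stood at 13.1, 11.8, and 17.9 CPM on fibronectin and at 16.9, 16.8, and 14.7 CPM on Geltrex™. The Collagen I samples all lay above the fibronectin samples, and the means differed by 0.48 on the log2 scale (SE 0.141, adjusted p = 0.0124). This call did not hold without fibronectin replicate 1 (adjusted p = 0.0564) or fibronectin replicate 2 (adjusted p = 0.0646). The difference between fibronectin and control was −0.37 with an adjusted p of 0.0529, and it was called when control replicate 3, Collagen I replicate 3, or fibronectin replicate 3 was left out (adjusted p 0.00349 to 0.0389) and by DESeq2 (0.0419). An antisense gene, *B130046B21Rik*, covers 43.7% of the exon bases of *Prkag1* and held 130 counts over all 12 samples, and how reads in such shared stretches were counted is not stated.

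*Prkag2*, the gene of the gamma2 subunit known from heart muscle, was lowest on uncoated plates. It stood at 9.15, 8.40, and 10.4 CPM in the control samples, at 11.9, 11.4, and 13.0 CPM on Collagen I, at 11.4, 14.1, and 12.7 CPM on fibronectin, and at 12.6, 11.9, and 11.7 CPM on Geltrex™. The highest control sample was below the lowest sample of each coated group. The log2 fold change over control was 0.45 on fibronectin (SE 0.115, adjusted p = 0.00709), 0.38 on Geltrex™ (SE 0.116, adjusted p = 0.0204), and 0.38 on Collagen I (SE 0.116, adjusted p = 0.123), so that the first 2 were called and the last was not. These comparisons share the control samples. The call on Geltrex™ did not hold without control replicate 1, control replicate 2, or Geltrex™ replicate 1 (adjusted p 0.0557 to 0.0758), and antisense genes cover 12.3% (*Prkag2os2*) and 2.19% (*Prkag2os1*) of its exon bases.

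*Prkaa1*, the alpha1 gene that supplies most catalytic subunit mRNA here, was highest on fibronectin. It stood at 160.4, 198.8, and 183 CPM in the control samples, at 167, 173, and 133 CPM on Collagen I, at 232, 254, and 197 CPM on fibronectin, and at 181, 188, and 191 CPM on Geltrex™. All fibronectin samples lay above all Collagen I and Geltrex™ samples, and they overlapped the control samples. Between Collagen I and fibronectin *Prkaa1* differed by −0.53 on the log2 scale (SE 0.112, adjusted p = 0.00143), a call that held whichever sample was left out. It was higher on fibronectin than in control by 0.33 (SE 0.112, adjusted p = 0.0319), and this call did not hold without control replicate 1, control replicate 3, fibronectin replicate 1, or fibronectin replicate 2 (adjusted p 0.0622 to 0.142). On Geltrex™ the log2 fold change over control was 0.05 (95% interval −0.19 to 0.28).

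*Prkaa2*, the alpha2 gene, went the other way on fibronectin. It stood at 10.98, 16.5, and 13.0 CPM in the control samples and at 16.1, 16.0, and 8.28 CPM on Collagen I. It stood at 8.65, 9.46, and 5.44 CPM on fibronectin and at 9.40, 7.70, and 8.75 CPM on Geltrex™. All control samples were above all fibronectin and Geltrex™ samples, whereas Collagen I replicate 3 lay within their range. *Prkaa2* fell relative to control by 0.78 on the log2 scale on fibronectin (SE 0.237, adjusted p = 0.0196) and by 0.65 on Geltrex™ (SE 0.237, adjusted p = 0.0461), and it was higher with Collagen I than with fibronectin by 0.78 (SE 0.238, adjusted p = 0.0146) and than on Geltrex™ by 0.64 (SE 0.237, adjusted p = 0.0435). With 140 to 450 counts a sample, its errors were the widest of the 8 genes, and without Collagen I replicate 3 the difference between Collagen I and fibronectin was 1.04 (adjusted p = 0.000893).

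The calls on *Prkaa2* depended on single samples. That between Collagen I and fibronectin did not hold without Collagen I replicate 1, Collagen I replicate 2, or fibronectin replicate 3 (adjusted p 0.0621 to 0.0675), and that between fibronectin and control did not hold without control replicate 2 (adjusted p = 0.0915) or fibronectin replicate 3 (adjusted p = 0.0772). The calls against Geltrex™ were each kept in 5 of the 12 fits with 1 sample left out. For Collagen I they were lost without control replicate 3, Collagen I replicates 1 or 2, fibronectin replicate 1, or any Geltrex™ sample (adjusted p 0.0526 to 0.163), and for control without control replicates 2 or 3, Collagen I replicate 1, fibronectin replicate 1, or any Geltrex™ sample (adjusted p 0.0516 to 0.195).

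The scaffold genes moved little. *Prkab1* (beta1) stood between 25.9 and 30.7 CPM in all 12 samples, with group means of 28.1 ± 2.29 CPM in control, 27.6 ± 2.28 on Collagen I, 26.2 ± 0.564 on fibronectin, and 28.04 ± 0.311 on Geltrex™ (SD, n = 3). It was called in none of the 6 comparisons with edgeR or DESeq2, its lowest unadjusted p was 0.269, and its log2 fold changes lay between −0.10 and 0.07, with 95% intervals that reached from −0.28 to 0.26. *Prkab2* (beta2) stood at 33.7, 34.9, and 36.8 CPM in the control samples, at 38.9, 37.8, and 30.4 CPM on Collagen I, at 34.1, 29.97, and 27.3 CPM on fibronectin, and at 28.2, 27.3, and 29.3 CPM on Geltrex™. The Geltrex™ samples were all below the control and Collagen I samples. *Prkab2* fell by 0.31 on the log2 scale on Geltrex™ relative to control (SE 0.104, adjusted p = 0.0293) and was higher with Collagen I than with Geltrex™ by 0.34 (SE 0.104, adjusted p = 0.0185).

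Both *Prkab2* calls were small and rested on few samples. The first did not hold without control replicates 2 or 3 or any Geltrex™ sample (adjusted p 0.0580 to 0.115), and the second did not hold without Collagen I replicates 1 or 2 or Geltrex™ replicates 1 or 2 (adjusted p 0.0618 to 0.0919). Its difference between Collagen I and fibronectin, 0.23 with an adjusted p of 0.0825, was called without Collagen I replicate 3 (adjusted p = 0.0115) and without fibronectin replicate 1 (adjusted p = 0.0395).

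*Stk11*, which encodes the kinase that activates AMPK and its relatives, stood at 102.3, 85.1, and 78.4 CPM in the control samples and at 90.5, 91.9, and 109.4 CPM on Collagen I. It stood at 66.4, 58.7, and 70.4 CPM on fibronectin and at 81.0, 73.9, and 77.4 CPM on Geltrex™. The fibronectin samples were below all others, and the Geltrex™ samples were below all Collagen I samples but overlapped the control samples. *Stk11* was higher with Collagen I than with fibronectin by 0.58 on the log2 scale (SE 0.106, adjusted p = 0.00051) and fell by 0.44 on fibronectin relative to control (SE 0.106, adjusted p = 0.00508), and both calls held whichever sample was left out. Its difference between Collagen I and Geltrex™ was 0.33 (SE 0.106, adjusted p = 0.0235), which was not called without Collagen I replicate 3, Geltrex™ replicate 2, or Geltrex™ replicate 3 (adjusted p 0.0679 to 0.102). A stretch of 5.07% of its exon bases overlaps *Cbarp* on the opposite strand, a gene with 2340 counts over the 12 samples.

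Between Collagen I and fibronectin, 5 of the 8 genes were called, where 45% of all genes tested were called. Of these, 4 were higher and 1 was lower on Collagen I, against 22.1% and 22.9% of all genes. Between Collagen I and Geltrex™, 4 of 8 were called, all higher on Collagen I, against 37.1% of all genes called and 18.2% called higher. Relative to control, fibronectin changed 5 of 8, against 31.9%, with 2 higher and 3 lower, against 17.1% and 14.7%. Geltrex™ changed 4 of 8, against 33%, with 1 higher and 3 lower, against 16.4% and 16.6%. Between fibronectin and Geltrex™ only *Prkag3* was called, lower on fibronectin, against 19.3% of all genes called and 9.06% called lower. Between Collagen I and control none of the 8 was called by edgeR or by DESeq2, 1 (*Prkag2*) had an unadjusted p under 0.05, and 1.12% of all genes were called.

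The median log2 fold change of the 8 was 0.35 for Collagen I over fibronectin and 0.32 for Collagen I over Geltrex™, beside 0.02 and 0.03 over all genes tested. The samples of the groups did not overlap for 4 of the 8 genes between Collagen I and fibronectin and for 5 between Collagen I and Geltrex™, which held for 51.4% and 54.7% of all genes. Relative to control this was so for 4 on fibronectin, 4 on Geltrex™, and 1 on Collagen I, against 41.6%, 50.4%, and 17.3% of all genes, and between fibronectin and Geltrex™ for 4, against 42.7%. With only 8 genes, these counts describe the set and were not tested against the background. *Prkag3* alone was called with a fold change of at least 2, with Collagen I over fibronectin, Collagen I over Geltrex™, fibronectin over control, and Geltrex™ over control, as were 8.46%, 9.32%, 6.66%, and 9.14% of all genes.

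**Figure D2:**
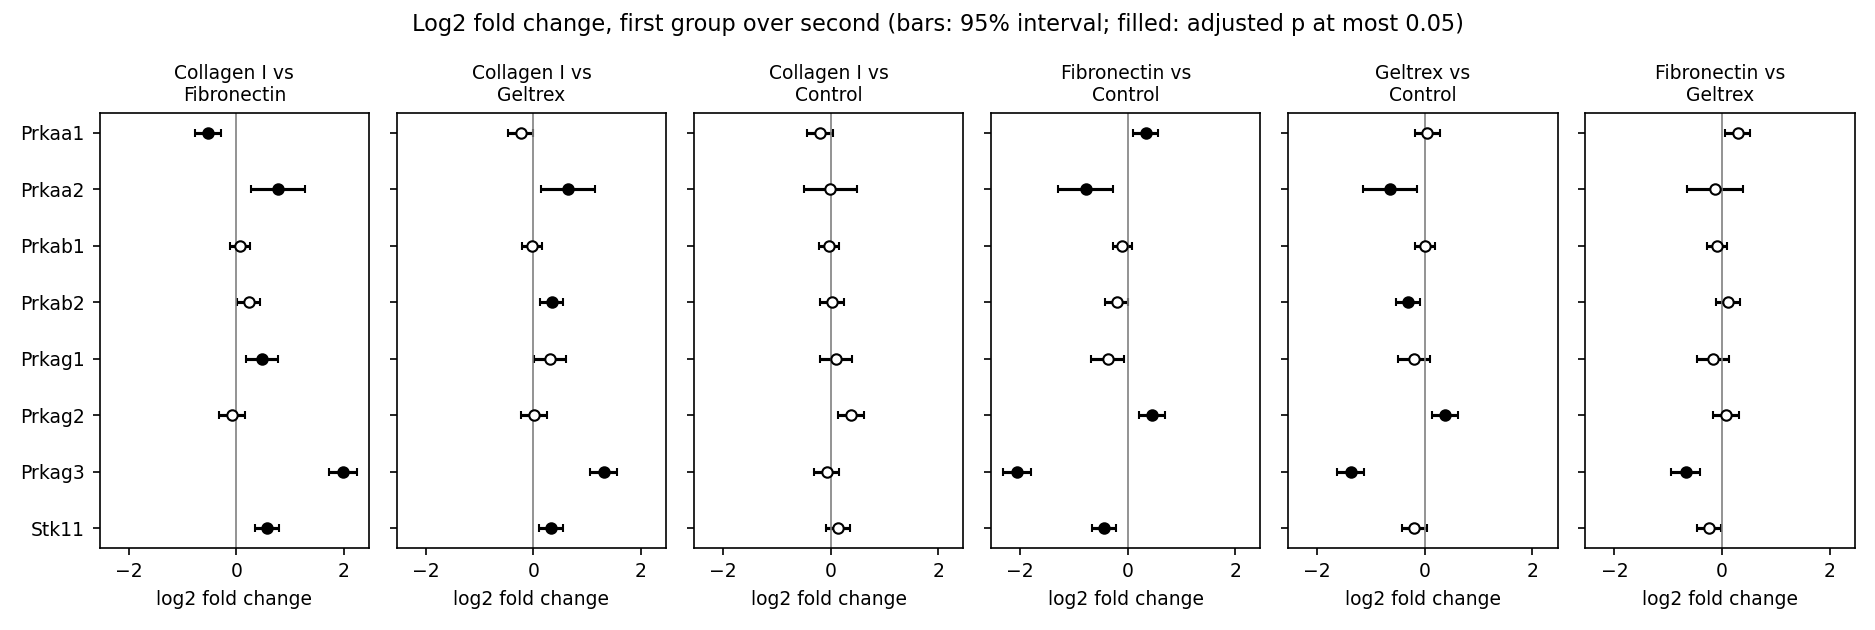
Log2 fold changes of the 8 genes in the 6 comparisons, first group over second, with 95% intervals from edgeR and filled points for an adjusted p of at most 0.05. *Prkag3* lies at 1.98 and 1.30 for Collagen I over fibronectin and Geltrex™ and at −2.05 and −1.38 for those coatings over control, and the panel of Collagen I against control holds no filled point.

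The myotube genes moved in the same comparisons, and their part in these results was not tested. All 10 were lower on fibronectin and on Geltrex™ than in control, with median log2 fold changes of −2.02 and −1.48, beside −2.05 and −1.38 for *Prkag3*. Per 1000 CPM of summed myotube genes, *Prkag3* stood at 2.40 to 2.80 CPM in the control samples, 2.42 to 2.47 on Collagen I, 1.97 to 2.07 on fibronectin, and 2.09 to 2.49 on Geltrex™. On that scale its group means lay within 2.03 to 2.65 CPM, and the fibronectin samples lay below all other samples. The mean level of *Prkag3* itself differed 4.15-fold between the highest and the lowest group mean. *Prkaa2* had means of 1.55 ± 0.300 CPM per 1000 in control and 1.48 ± 0.466 on Collagen I. On fibronectin it had 2.85 ± 0.798 and on Geltrex™ 2.19 ± 0.183 (SD, n = 3). On that scale *Stk11* stood at 10.1 ± 1.12 in control and 23.6 ± 2.13 on fibronectin, and *Prkaa1* at 20.8 ± 2.47 and 82.7 ± 12.4.

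**Figure D3:**
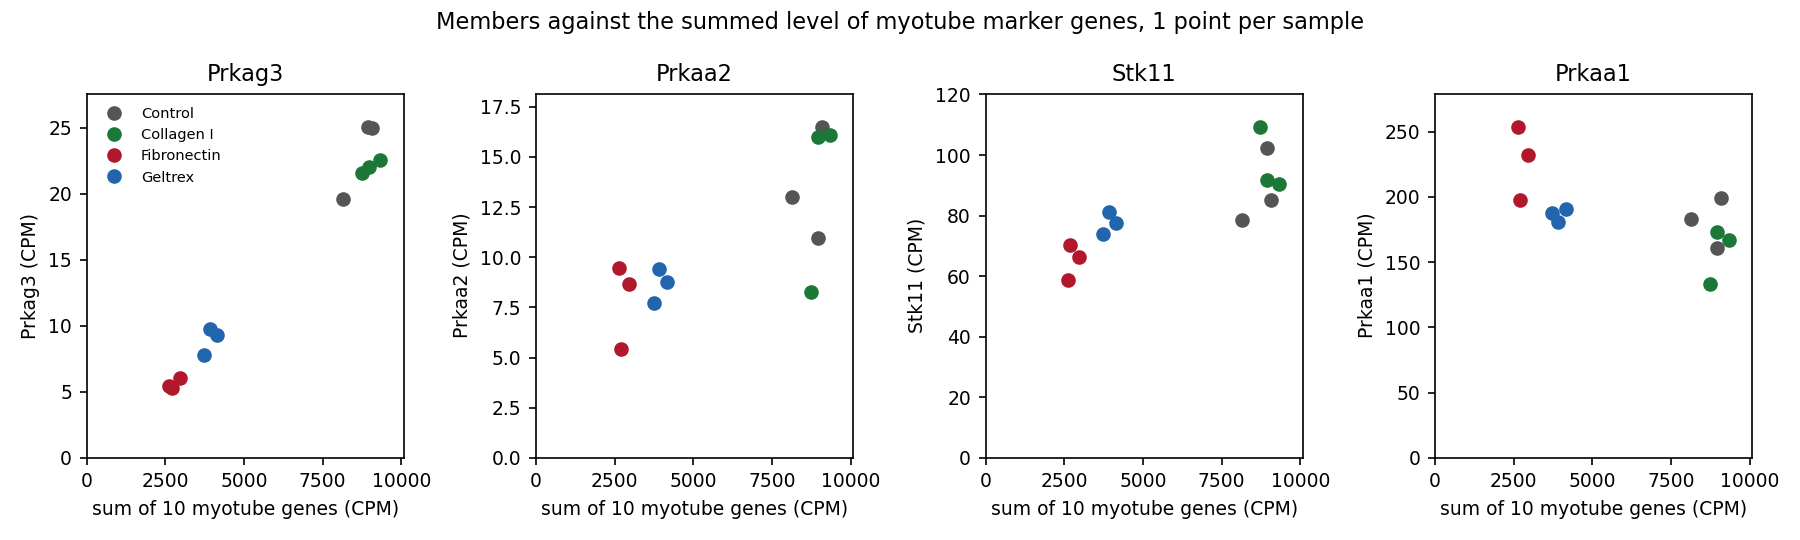
*Prkag3*, *Prkaa2*, *Stk11*, and *Prkaa1* (CPM, vertical axes) against the summed CPM of 10 myotube genes, with 1 point per sample and colors for the 4 groups. The fibronectin samples lie at 2625 to 2960 CPM and the control and Collagen I samples at 8140 to 9332 CPM, and Collagen I replicate 3 has 8.28 CPM of *Prkaa2* at a myotube sum of 8738 CPM.

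Isoform shares were computed within each sample as an isoform's reads per kilobase over those of its subunit kind, so that they need no scaling between libraries. Summed per kilobase, the alpha genes gave 40.5 ± 4.48 CPM per kilobase in control, 35.6 ± 5.20 on Collagen I, 49.9 ± 6.37 on fibronectin, and 41.1 ± 1.06 on Geltrex™. The beta genes gave 14.5 to 16.1 in the 4 group means, and the gamma genes gave 16.3 ± 1.73 in control, 17.01 ± 0.755 on Collagen I, 10.1 ± 1.39 on fibronectin, and 11.7 ± 0.629 on Geltrex™ (SD, n = 3). The gamma sums of the fibronectin and Geltrex™ samples lay at 9.10 to 12.3 and those of the other samples at 14.3 to 17.9, without overlap. The level of alpha mRNA per kilobase was above that of beta and gamma mRNA in every group.

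The gamma3 share showed the largest range. It was 40.1%, 38.8%, and 37.2% of gamma reads per kilobase in the control samples and 37.0%, 36.1%, and 32.8% on Collagen I, and it was 17.3%, 16.3%, and 12.4% on fibronectin and 21.4%, 18.1%, and 22.7% on Geltrex™. No group overlapped another. Over all 15400 assignments of the 12 samples to 4 groups of 3, the exact permutation test gave p = 6.49e-05, the smallest it can give, and 0.000325 after adjustment over the 5 shares tested. The gamma1 share went from 52.3% ± 1.28 in control and 53.7% ± 2.08 on Collagen I to 64.9% ± 5.49 on fibronectin and 63.3% ± 2.64 on Geltrex™ (SD, exact permutation test, adjusted p = 0.00601). The gamma2 share went from 8.97% ± 1.98 and 10.97% ± 0.342 to 19.8% ± 3.63 and 15.9% ± 0.337 in the same order (adjusted p = 0.000487, exact permutation test). Shares of 1 kind sum to 100%, and the gamma1 share was higher on fibronectin, where the level of *Prkag1* was lower than on Collagen I. The level of *Prkag2* differed between Collagen I and fibronectin by −0.07 on the log2 scale (adjusted p = 0.62, not called). Between Collagen I and Geltrex™ it differed by 0.0039 (adjusted p = 0.983, not called), while its share was higher on both coatings than on Collagen I.

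**Figure D4:**
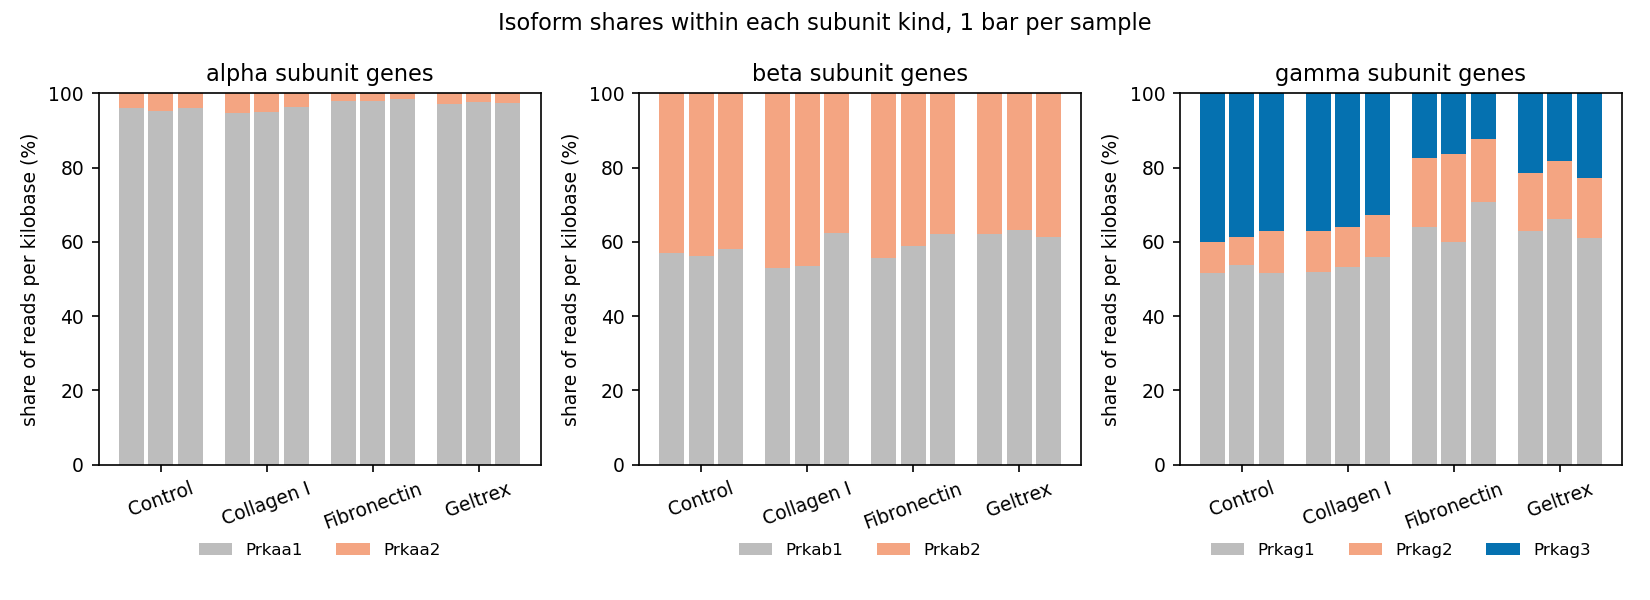
Share of each isoform gene (%) in the reads per kilobase of its subunit kind, with 1 stacked bar per sample and the 4 groups side by side. The *Prkag3* segment takes 32.8% to 40.1% of the gamma bars in the control and Collagen I samples and 12.4% to 22.7% on fibronectin and Geltrex™, and *Prkaa2* takes at most 5.33% of any alpha bar.

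Alpha2 was a minor isoform in all samples. Its share was 3.84%, 4.63%, and 3.99% in the control samples, 5.33%, 5.11%, and 3.51% on Collagen I, 2.13%, 2.13%, and 1.58% on fibronectin, and 2.95%, 2.34%, and 2.61% on Geltrex™. All fibronectin and Geltrex™ samples were below all control and Collagen I samples (exact permutation test among the 4 groups, adjusted p = 0.0039). The beta2 share was 43.0% ± 1.04 in control, 43.7% ± 5.22 on Collagen I, 41.1% ± 3.15 on fibronectin, and 37.7% ± 0.987 on Geltrex™ (SD, n = 3), and it did not pass the test (exact permutation p = 0.186). Collagen I replicate 3 decided that result, with a beta2 share of 37.7% beside 47.0% and 46.5% in the other Collagen I samples, and without it the adjusted p was 0.00877. For a pair of groups of 3 the exact test cannot go below p = 0.1, so pairs are given by their values only.

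The lengths assumed for each gene set the size of these shares. With the longest transcript in place of the union of exons, the gamma2 share was 12.7% in control and 26.7% on fibronectin and the gamma3 share 36.8% and 13.8%. As shares of raw counts with no length, gamma2 was 18.4% and 39.2%, alpha2 6.90% and 3.29%, and gamma1 36.2% and 43.5%, and the gamma1 share then missed the threshold (exact permutation test, adjusted p = 0.0763).

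The wider AMPK pathway was read from 71 further genes, of which 67 were tested. Between Collagen I and fibronectin 39 of the 67 were called (20 higher and 19 lower on Collagen I, 58.2%), and between Collagen I and Geltrex™ 29 were called (18 higher and 11 lower, 43.3%), against 45% and 37.1% of all genes. Relative to control, 31 were called on fibronectin (15 higher and 16 lower, 46.3% beside 31.9% of all genes) and 23 on Geltrex™ (7 higher and 16 lower, 34.3% beside 33%), so that the share on Geltrex™ was near that of all genes. None was called between Collagen I and control with edgeR, where 9 had an unadjusted p under 0.05 and DESeq2 called 5 (*Cry1*, *Eef2k*, *Nuak1*, *Ppargc1a*, and *Tbc1d1*). The median log2 fold change of the 67 was −0.05 for Collagen I over fibronectin and 0.01 for Collagen I over Geltrex™. The genes of cycling cells and of myotubes moved in the same comparisons, and their part in these counts was not tested.

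Of the 8 partners and alternatives of LKB1, 4 were higher and 2 lower on Collagen I than on fibronectin (75% called, beside 45% of all genes), and 4 were higher and 1 lower than on Geltrex™ (62.5%, beside 37.1%). *Strada* and *Stradb* encode the pseudokinases that activate LKB1, and *Cab39l* encodes a form of the MO25 scaffold of that complex. *Strada* had a mean of 22.6 ± 1.87 CPM with Collagen I beside 15.8 ± 0.785 CPM with fibronectin (SD, n = 3), 0.51 apart on the log2 scale (adjusted p = 0.000772). *Stradb* was higher on Collagen I by 0.47 than on fibronectin (adjusted p = 0.00363) and by 0.68 than on Geltrex™ (adjusted p = 0.000273). *Cab39l* fell relative to control on fibronectin (−0.35, adjusted p = 0.00896) and on Geltrex™ (−0.38, adjusted p = 0.00558). The LKB1 complex genes *Stk11*, *Strada*, *Stradb*, and *Cab39l* were thus each called lower on fibronectin than on Collagen I, while *Cab39*, the other MO25 gene, had a log2 fold change of −0.17 for Collagen I over fibronectin that was not called (adjusted p = 0.212). *Tab1*, the activator of the kinase TAK1, fell by 0.48 on Geltrex™ relative to control (adjusted p = 0.00915). *Camkk1*, a calcium- and calmodulin-dependent kinase of the pathway, was higher on fibronectin than on Geltrex™ by 0.46 (adjusted p = 0.0271). The 2 genes called lower on Collagen I than on fibronectin were *Map3k7*, which encodes TAK1 (−0.34, adjusted p = 0.00637), and *Camkk2* (−0.31, adjusted p = 0.0277). *Camkk2* was also lower on Collagen I than on Geltrex™ (−0.32, adjusted p = 0.0300).

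Regulators and partners of AMPK went both ways, with 4 of 14 tested genes higher and 6 lower on Collagen I than on fibronectin (71.4% called, beside 45% of all genes), and 3 higher and 3 lower than on Geltrex™ (42.9%, beside 37.1%). *Ppp1r3c*, a glycogen-targeting subunit of protein phosphatase 1, separated the coatings furthest. It stood at 3.99 ± 0.491 CPM in control, 3.95 ± 0.670 on Collagen I, 7.42 ± 0.255 on fibronectin, and 1.71 ± 0.0913 on Geltrex™ (SD, n = 3), so that it rose on fibronectin (log2 fold change 0.89 over control, adjusted p = 0.00033) and fell on Geltrex™ (−1.22, adjusted p = 5.44e-05). *Fnip2*, which encodes a folliculin-interacting protein that binds AMPK, rose by 0.82 on fibronectin relative to control (adjusted p = 0.00018), and *Wwp1*, a ubiquitin ligase, by 0.71 (adjusted p = 0.000227). *Sesn1* (sestrin 1) was higher with Collagen I than with Geltrex™ by 0.73 (adjusted p = 3.4e-05), and *Sesn2* was lower (−0.53, adjusted p = 0.00263). For Collagen I over fibronectin the values were 0.50 for *Sesn1* (adjusted p = 0.000817) and −0.65 for *Sesn2* (adjusted p = 0.000426). *Ak1*, an adenylate kinase that interconverts adenine nucleotides, fell relative to control by 0.62 on fibronectin (adjusted p = 1.33e-05) and by 0.35 on Geltrex™ (adjusted p = 0.00163).

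Among the genes of AMPK substrates in lipid and sugar metabolism, 3 of 14 tested were higher and 6 lower on Collagen I than on fibronectin (64.3% called, beside 45% of all genes), and 4 were higher and 2 lower than on Geltrex™ (42.9%, beside 37.1%). *Acaca*, the acetyl-CoA carboxylase that AMPK inhibits in fatty acid synthesis, rose by 0.63 on fibronectin over control (adjusted p = 0.000188) and on Collagen I it lay below the fibronectin level (−0.96, adjusted p = 2.26e-06). *Acaca* also rose on Geltrex™ over control, by 0.32 (adjusted p = 0.0213). *Gys1*, muscle glycogen synthase, fell on fibronectin by 0.92 (adjusted p = 8.54e-07) and on Geltrex™ by 0.77 (adjusted p = 3.85e-06). *Lipe*, hormone-sensitive lipase, was higher with Collagen I than with Geltrex™ by 0.75 (adjusted p = 0.00235). *Txnip*, which restrains glucose uptake, stood at 182 ± 21.6 CPM in control, 166 ± 30.4 on Collagen I, 263 ± 88.4 on fibronectin, and 58.5 ± 3.74 on Geltrex™, and it fell on Geltrex™ by 1.63 relative to control (adjusted p = 1.25e-05).

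**Figure D5:**
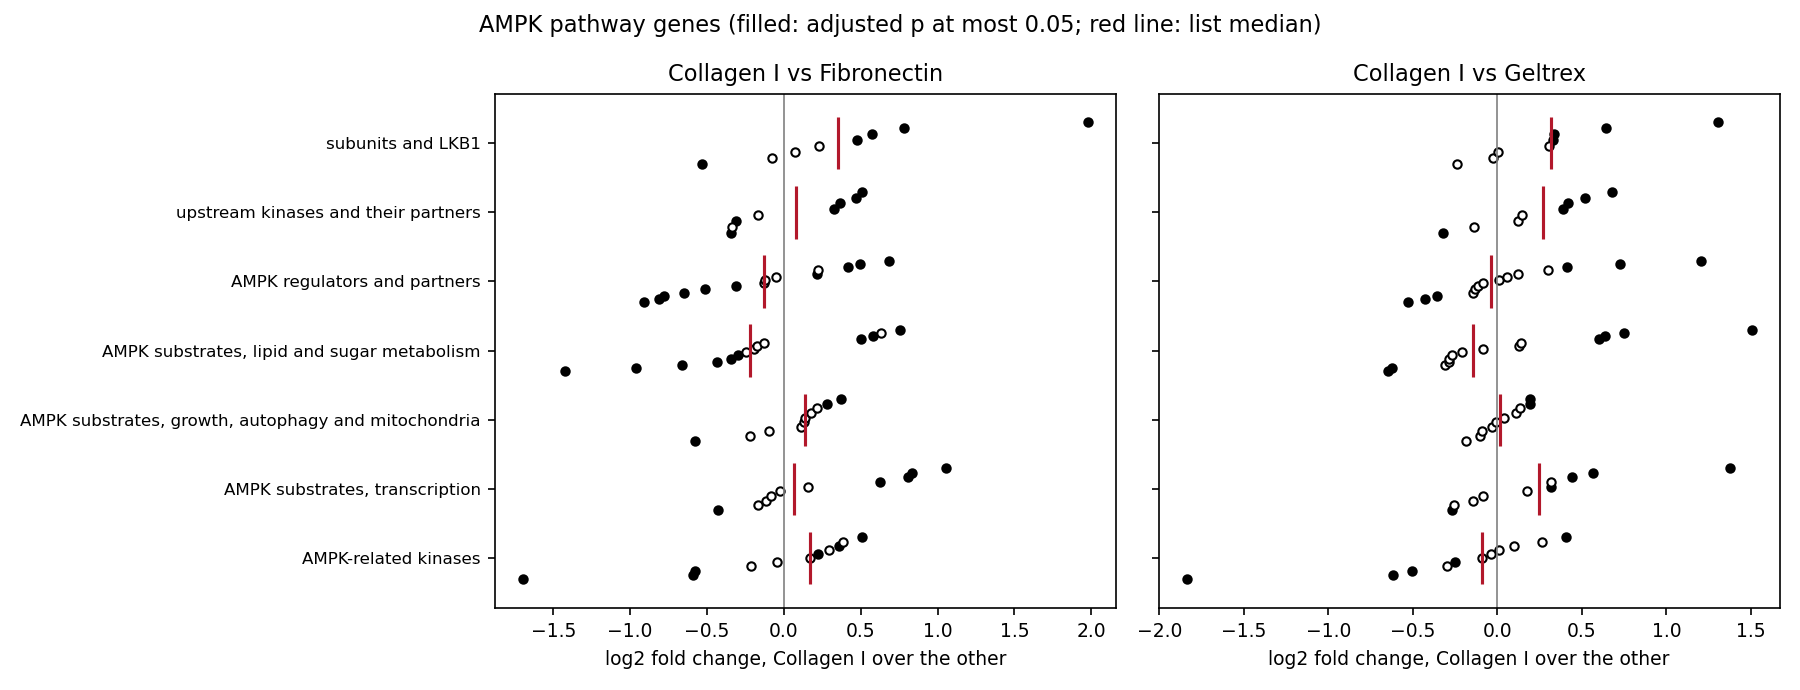
Log2 fold changes of the 8 genes and of the tested genes of the other 6 lists for Collagen I over fibronectin (left) and over Geltrex™ (right), with 1 point per gene, filled where the adjusted p was at most 0.05, and a red line at the median of each list. The medians of the 8 genes lie at 0.35 and 0.32, those of the lipid and sugar substrates at −0.22 and −0.15, and *Melk* lies farthest left at −1.69 and −1.84.

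Substrates in growth, autophagy, and mitochondrial division numbered 10, of which 3 were called between Collagen I and fibronectin (2 higher and 1 lower, 30% beside 45% of all genes) and 2 between Collagen I and Geltrex™ (both higher, 20% beside 37.1%). *Eef2k*, the kinase that slows translation elongation, lay on Collagen I below its fibronectin level (−0.58, adjusted p = 3.86e-05), and *Rptor*, the mTORC1 scaffold raptor, fell by 0.50 on fibronectin relative to control (adjusted p = 0.00102). *Rptor* also fell on Geltrex™, by 0.26 (adjusted p = 0.0437). *Ulk1*, which starts autophagy, and *Mff*, which recruits the mitochondrial fission machinery, were each higher on Collagen I than on Geltrex™ by 0.19 (adjusted p = 0.048 and 0.0386). Among 10 transcriptional regulators listed for the pathway, 4 were higher and 1 lower on Collagen I than on each of fibronectin and Geltrex™. Of the 10, 50% were called in each comparison, beside 45% and 37.1% of all genes. *Ppargc1a*, the coactivator PGC-1alpha of mitochondrial genes, stood at 2.11 CPM in control, 3.94 ± 1.23 on Collagen I, 1.90 ± 0.465 on fibronectin, and 1.52 ± 0.107 on Geltrex™ (SD, n = 3). It was higher with Collagen I than with fibronectin by 1.06 (adjusted p = 0.00247) and than on Geltrex™ by 1.38 (adjusted p = 0.000509), and the difference of 0.90 from control was not called (adjusted p = 0.0752). *Tfeb*, a regulator of lysosomal genes, was higher with Collagen I than with fibronectin by 0.83 (adjusted p = 0.000185), *Esrra*, the nuclear receptor ERRalpha, by 0.80 (adjusted p = 0.00495), and *Cry1*, a clock repressor, fell on Geltrex™ by 0.87 relative to control (adjusted p = 1.12e-05). *Cry1* also fell on fibronectin, by 0.31 (adjusted p = 0.0320).

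The AMPK-related kinases, most of which LKB1 also activates, were tested for 11 of 13 genes. Between Collagen I and fibronectin 3 were higher and 3 lower (54.5% called), and between Collagen I and Geltrex™ 1 was higher and 4 lower (45.5%), which was near the 45% and 37.1% of all genes. *Melk*, a kinase of dividing cells that does not need LKB1, stood at 5.34 ± 1.38 CPM in control, 4.88 ± 0.833 on Collagen I, 15.8 ± 2.08 on fibronectin, and 17.4 ± 0.637 on Geltrex™ (SD, n = 3), with log2 fold changes over control of 1.57 (adjusted p = 3.68e-06) and 1.71 (adjusted p = 1.1e-06). The 8 genes of cycling cells also rose in both comparisons, with medians of 1.75 and 1.64. *Sik1*, a salt-inducible kinase, and *Nuak1* fell on fibronectin relative to control by 0.72 (adjusted p = 7.32e-05) and 0.85 (adjusted p = 0.000255), and both were lower on fibronectin than on Geltrex™ (−0.60, adjusted p = 0.000649, and −0.66, adjusted p = 0.00323). *Sik3* rose on Geltrex™ by 0.36 (adjusted p = 0.00115), and *Snrk* was higher on fibronectin than on Geltrex™ by 0.62 (adjusted p = 0.000376).

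The pattern of each member over the 12 samples was set beside those of 12320 tested genes with a mean of at least 1 CPM, by Pearson's r of log2 CPM, as a description of samples that share libraries and depth. For *Prkag3* the closest gene was *Mpi* (r = 0.995), which encodes mannose phosphate isomerase and stood at 37.1 CPM in control, 35.5 on Collagen I, 19.8 on fibronectin, and 24.3 on Geltrex™. Among the closest to *Prkaa2* were *Kif13a* (0.973), *Jph1* (0.967), *Slc12a2* (0.965), and *Fxr1* (0.943), and each of their group means was higher in control and on Collagen I than on fibronectin and Geltrex™. *Jph1*, which encodes junctophilin 1 of the muscle triad, stood at 74.6, 74.7, 50.1, and 48.8 CPM in control, Collagen I, fibronectin, and Geltrex™. The closest to *Prkaa1* was *Bmpr2* (0.991), a BMP receptor gene with 405 CPM on fibronectin and 239 CPM on Collagen I, and the closest to *Stk11* was *Ccdc97* (0.984). The values were lower for *Prkag1* with *Gle1* (0.961), *Prkab2* with *2810039B14Rik* (0.945), *Prkag2* with *Cdkn2aipnl* (0.922), and *Prkab1* with *Snhg6* (0.882). Among the members themselves, *Stk11* ran with *Prkag1* (0.865) and *Prkag3* (0.858) and against *Prkaa1* (−0.937), and *Prkaa2* ran with *Prkab2* (0.863).

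Per kilobase of exon, the mean level over the 12 samples was highest for *Prkaa1* at 40.4 CPM per kilobase, followed by *Stk11* at 17.9, *Prkab1* at 8.97, *Prkag1* at 7.91, *Prkab2* at 6.35, *Prkag3* at 4.06, *Prkag2* at 1.78, and *Prkaa2* at 1.36. This order was not the same in each group. In control *Prkag3* stood at 6.31 ± 0.860 CPM per kilobase beside 6.89 ± 0.302 for *Prkab2*, with ranges of 5.32 to 6.82 and 6.62 to 7.22 that overlap, whereas on fibronectin it stood at 1.52 ± 0.101, below *Prkag2* at 1.97 ± 0.203 (SD, n = 3). *Prkag1* and *Prkab1* overlapped in control (7.38 to 9.43 and 8.73 to 10.03) and on Collagen I (8.61 to 10.01 and 8.53 to 9.86) and did not on fibronectin (5.45 to 8.25 and 8.44 to 8.76) or Geltrex™ (6.76 to 7.76 and 9.04 to 9.24).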

How the data were processed

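RNA-seq libraries of 12 samples in 4 groups of 3 were analysed. Raw counts of reads were deposited for each gene, which the authors made by trimming with Trimmomatic, aligning with HISAT2, and counting with featureCounts. No replicate was pooled, and the build, strand setting, and treatment of multiply mapped reads are not given in the sources used here. All 55536 identifiers were found in GENCODE M21 (GRCm38), which gave names, positions, and exon lengths. Read counts were modelled with edgeR 4.0.16 in R 4.3.3. The settings were filterByExpr (minimum count 10 and minimum total 15), TMM scaling, and 1 quasi-likelihood model with 8 residual degrees of freedom. The procedure was tested on simulated counts with 200 genes changed in the fibronectin samples. Against control, edgeR made 199 calls there, 17 of them false, and DESeq2 made 208, 26 of them false. Both recovered 86 of the 100 genes changed by 1 on the log2 scale. A standard error is the log2 fold change over the root of its F statistic. DESeq2 1.42.0, other scaling, filters, sample sets, a replicate block, and each sample left out were the alternatives. Named genes are the 8 members, up to 3 called genes of largest change per list and comparison (mean of at least 1 CPM), and the genes most like each member (5 for *Prkaa2*, 1 for the others), and some genes that this rule names are not reported here. *Cab39*, *Camkk2*, *Map3k7*, single myoblast and fibroblast genes, and the other genes that DESeq2 called between Collagen I and control were named after their values were seen. Values of a named gene in further groups complete its account. *Ppp1r3d*, *Mlxipl*, *Brsk2*, and *Mark1* did not pass the filter. The members and lists were chosen with earlier results of these data known. *Prkag3* had 130 to 162 counts in each fibronectin sample and *Prkaa2* 140 to 450 in each sample. Promoter sequences are from RefSeq (GRCm38.p6), and all 8 genes matched by symbol.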

Additional observations from a re-analysis of the deposited data

How the results depend on the processing

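With a 2-fold minimum beside the adjusted p, the number of the 8 genes called was 1 between Collagen I and fibronectin, 1 between Collagen I and Geltrex™, 1 between fibronectin and control, 1 between Geltrex™ and control, and 0 between fibronectin and Geltrex™, which the stricter rule lowers by construction. Between fibronectin and Geltrex™ the number was 2 with no filter on low counts and 3 with only the samples of those groups, and the cause was not tested. With 1 sample left out, the numbers ranged from 1 to 5 between Collagen I and Geltrex™, from 1 to 4 between Geltrex™ and control, and from 1 to 3 between fibronectin and Geltrex™, and from 4 to 6 for the comparisons of fibronectin with Collagen I and with control. Over all genes, 162 were called between Collagen I and control with edgeR, 485 with DESeq2, 581 with no filter, 39 with only those samples, and 44 to 92 without 1 of control replicates 2 or 3, Collagen I replicates 1 or 2, or any Geltrex™ sample. Between fibronectin and Geltrex™ 2805 were called, and 1717 to 1867 without fibronectin replicate 2 or any Geltrex™ sample. The fold minimum left 1226 of 6523, 1352 of 5384, 19 of 162, 965 of 4618, 1325 of 4786, and 577 of 2805 genes, in the order of Collagen I against fibronectin, Geltrex™, and control, fibronectin and Geltrex™ against control, and fibronectin against Geltrex™.

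The gamma1 share had an adjusted p of 0.0763 as a share of raw counts. The beta2 share had adjusted p values of 0.00877 to 0.3603 with 1 sample left out, the lowest without Collagen I replicate 3. The other shares kept their side of the threshold, with the highest adjusted p at 0.0151 (gamma1) when 1 sample was left out.

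For single genes, the call on *Prkaa2* between Geltrex™ and control was lost with RLE scaling (adjusted p = 0.0505) and that on *Prkaa1* between fibronectin and control with only those samples (adjusted p = 0.0622). *Prkag1* between fibronectin and control was called with DESeq2 (adjusted p = 0.0419), with no filter (adjusted p = 0.0226), and with at least 10 counts in every sample (adjusted p = 0.0412), and *Prkaa1* between fibronectin and Geltrex™ with no filter (adjusted p = 0.0275). With only the samples compared, *Prkag1* was called between Collagen I and Geltrex™ (adjusted p = 0.0297), and *Prkaa1* (0.0328) and *Stk11* (0.0365) between fibronectin and Geltrex™.

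Log2 fold changes that changed sign were all small and not called. *Prkag2* for Collagen I over Geltrex™ was −0.00599 with DESeq2, −0.0057 with RLE scaling, −0.0036 with no filter, and −0.052 to 0.042 with 1 sample left out. *Prkaa2* for Collagen I over control was 0.0028 with only those samples and −0.15 to 0.24 with 1 left out, and for fibronectin over Geltrex™ −0.29 to 0.071. *Prkab1* for Geltrex™ over control was 0.0049 with DESeq2, 0.0046 with RLE scaling, 0.0064 with no filter, and −0.036 to 0.067 with 1 left out. With 1 left out, *Prkab1* ranged from −0.093 to 0.0094 for Collagen I over Geltrex™ and from −0.10 to 0.044 over control, *Prkab2* from −0.039 to 0.12 for Collagen I over control, and *Prkaa1* from −0.033 to 0.13 for Geltrex™ over control.

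The labels do not say that a replicate number marks a shared culture, and the numbers were not taken as pairs. Deviations of same-numbered samples correlated by 0.0473, 0.169, and 0.225 between Collagen I and fibronectin (mean 0.147, and −0.0732 for different numbers), and the lowest correlation in each of the other comparisons was −0.154 to −0.0205. In a fit blocked on replicate number, the numbers of genes called were 5, 4, 0, 5, 4, and 1 in the order above, no member's call changed, and *Prkab1* for Geltrex™ over control was 0.000496. The block permutations of the shares gave adjusted p values of 0.00868 (alpha2), 0.156 (beta2), 0.0239 (gamma1), 0.00434 (gamma2), and 0.00434 (gamma3). Standard errors in the comparison of Collagen I with fibronectin were 0.24 for *Prkaa2* (140 to 450 counts a sample), 0.14 for *Prkag1*, and 0.12 for *Prkag3*, so precision did not follow counts alone.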
